A study of Mus musculus with 18 samples.

Results

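The genotype difference in the core response asks of each gene how much more, or less, its level changed between intact and infarcted tissue in Trem2 knockout (KO) mice than in wild-type (WT) mice. It was computed gene by gene as an interaction, the KO core minus the KO contralateral side, less the WT core minus the WT contralateral side, on a log2 scale. It rests on 12 of the 18 libraries of the study, 3 in each of 4 groups. The other 6 libraries hold peri-infarct tissue, which the contrast leaves out. Of 18922 genes in the count table, 15196 passed a filter on low counts and were tested. The same contrast was fitted again on 11 libraries, without the WT core library of replicate 3, and there 15314 genes were tested. A positive value means that the KO response lies above the WT response.

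The mice were C57Bl6 males of 8 to 10 weeks that were either WT or Trem2 KO. All 4 groups come from animals that received 50 mg/kg of the dye Rose Bengal and 525 nm laser light at 125 mW over a lesion of 3 mm, so the contralateral side is the uninjured side of an injured brain and not the brain of an uninjured mouse. Tissue was dissected 7 days later along the border shown by TTC, a dye that only living tissue turns red. No label says how the Trem2 allele was made or in which cells it is lost, and no label says whether a replicate is 1 animal, so each p-value reflects the spread between libraries, and that spread may be technical.

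Trem2 is a surface receptor of microglia and macrophages that binds lipids and lipoproteins and signals through the adaptor Tyrobp and the kinase Syk. In a photothrombotic stroke, light-activated dye closes cortical vessels, and within days microglia proliferate, monocytes and neutrophils enter, astrocytes around the lesion become reactive and fibroblasts lay down a scar while neurons in the core die. In models of demyelination and amyloid deposition, microglia without Trem2 are known for an incomplete passage into the disease-associated state, a program of lipid handling and lysosomal genes. In bulk tissue a lower level of a marker can come from fewer cells of a type or from less RNA per cell, and these cannot be told apart.

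One library stands apart from the rest. Total counts were 16993978 to 17650079 in 11 libraries and 18713770 in WT core replicate 3, which had 16234 genes detected against 16728 to 17086. The 10 top genes of that library made up 15.5% of all counts, and those of the others 3.27% to 5.38%. The Spearman correlation across genes between core libraries was 0.977 to 0.991 among the other 5 and 0.728 to 0.787 with this one. The cortical neuron transporter Slc17a7 was at 993, 878 and 0.907 CPM (counts scaled to a common library size) in WT core replicates 1, 2 and 3 and at 593, 521 and 428 CPM in the KO core. Snap25, a synaptic vesicle fusion protein of all neurons, was at 1750, 1580 and 2.14 CPM in the WT core and at 1220, 1270 and 1190 CPM in the KO core. Neuronal RNA was thus almost absent from WT core replicate 3 and plentiful in the other 5 core libraries. Whether that library differs by dissection, by lesion or by another cause was not tested. Interactions are given with and without it, and figures for 11 libraries are those without it.

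No gene had an interaction that passed edgeR's quasi-likelihood test at a Benjamini-Hochberg adjusted p under 0.05, with 12 libraries (0 of 15196, 0%) or with 11 (0 of 15314, 0%). The smallest adjusted p was 0.9997 with 12 libraries and 0.287 with 11. At an unadjusted p under 0.05 there were 116 genes with a larger response in KO (0.763%) and 63 with a smaller one (0.415%) over 12 libraries. Over 11 libraries there were 826 (5.39%) and 739 (4.83%). DESeq2, the other count tool run, called 2 genes over 12 libraries and 81 over 11, of which 52 were higher and 29 lower in KO. limma-voom called 0 genes in either set. Interactions are therefore given as log2 values ± SE, none of which passed that test.

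The responses themselves were large in both genotypes. Over 12 libraries, 4139 genes (27.2%) changed between core and contralateral side in WT and 2370 (15.6%) in KO. Over 11 libraries, 6013 (39.3%) changed in WT and 8639 (56.4%) in KO. With 11 libraries 5530 genes were called in both genotypes, 5528 of them in the same direction, 3109 in KO alone and 483 in WT alone. With 12 libraries 2111 were called in both, all in the same direction, 259 in KO alone and 2028 in WT alone. The genotype with the longer list thus turned with the 1 library. No gene called in a single genotype had a called interaction in either fit, so those lists do not show a difference between genotypes.

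Within a region, edgeR called 360 genes between KO and WT in the core over 11 libraries (2.35%), 138 of them higher in KO (0.901%) and 222 lower (1.45%), and 4 genes on the contralateral side (0.0261%). Over 12 libraries the same contrasts called 0 genes in the core (0%) and 0 on the contralateral side (0%), with 982 and 292 at an unadjusted p under 0.05, and no other tool was run on them. Every difference within a region that is named as called below is therefore a call of the 11 libraries that was lost with WT core replicate 3.

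The size of the WT response depended on the library left out. The standard deviation over genes of the log2 response was 1.30 in WT and 1.16 in KO with 12 libraries, and 0.94 in WT and 1.18 in KO with 11. Taken library by library against the contralateral mean of its own genotype, this standard deviation was 1.07, 1.18 and 1.03 in the KO core, and 0.85, 0.92 and 2.55 in the WT core. All 3 KO core libraries thus lay above WT replicates 1 and 2 and below WT replicate 3. Across genes, the KO response followed the WT response with r = 0.91 over 12 libraries and r = 0.866 over 11, a description in which genes are not independent replicates. The major axis of KO on WT had a slope of 0.88 with 12 libraries and 1.3 with 11. The sign of the interaction differed between the 2 fits for 6545 of 15196 genes (43.1%), while the 156 genes with an unadjusted p under 0.05 in both kept their sign.

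**Figure D1:**
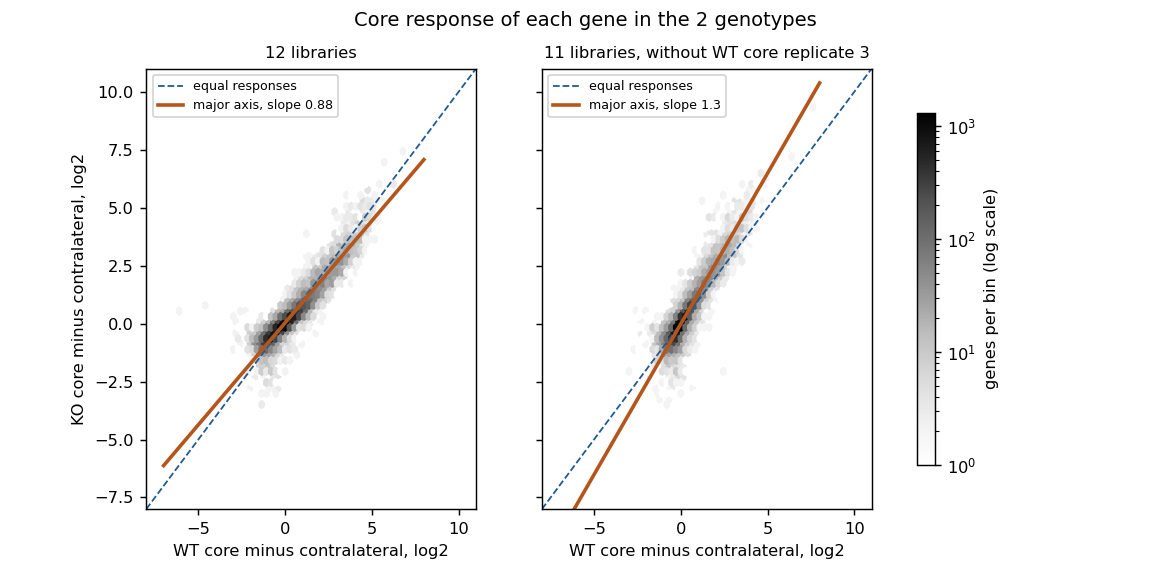
Core minus contralateral log2 response of each tested gene in WT (x axis) and KO (y axis), with 12 libraries on the left and 11 on the right. Shading gives the number of genes per bin on a log scale, the dashed line marks equal responses and the solid line is the major axis, whose slope is 0.88 on the left and 1.3 on the right.

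Trem2 itself checks the labels. It stood at 27.9, 20.5 and 28 CPM on the WT contralateral side, 184, 215 and 919 CPM in the WT core, 0.691, 0.902 and 0.337 CPM on the KO contralateral side and 5.59, 8.24 and 5.23 CPM in the KO core. Every KO library was below every WT library of the same region. The KO minus WT log2 difference over 11 libraries was -5.27 on the contralateral side (edgeR adjusted p = 2.45e-05) and -4.95 in the core (edgeR adjusted p = 3.12e-06). Over 12 libraries it was -5.29 (edgeR adjusted p = 0.384) and -6.11 (edgeR adjusted p = 0.1), so that even the targeted gene was not called, although its groups did not overlap. The residual KO signal was higher in every core library than in every contralateral one, and its response of 3.31 lay beside 2.99 in WT. The interaction of Trem2 was 0.32 ± 0.39 over 11 libraries, with a 95% interval from -0.55 to 1.19, and -0.82 ± 0.88 over 12. Its sign turned with that library, and neither value passed the test.

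Beyond Trem2, the genes named first are those with the smallest p in each direction among genes with a mean of at least 1 log2 CPM, since none was called. Osmr encodes the oncostatin M receptor, a cytokine receptor of astrocytes, fibroblasts and endothelium. Its level was 6.5, 7.92 and 7.81 CPM on the WT contralateral side and 23.4, 27.4 and 24.5 CPM in the WT core, against 4.78, 5.41 and 5.12 CPM on the KO contralateral side and 30.2, 31.9 and 32.8 CPM in the KO core. KO libraries were the higher ones in the core and the lower ones on the contralateral side, with no overlap in either, and WT core replicate 3 lay with its group. The interaction was 0.87 ± 0.16 with 12 libraries and 0.85 ± 0.16 with 11, so it hardly moved with WT core replicate 3. Its unadjusted p was 0.000367 over 12 libraries, and it was 1 of the 2 genes that DESeq2 called there (adjusted p = 0.027). Its ligand gene Osm, made by myeloid cells, had 1.15 ± 1.02 with 12 libraries and 2.21 ± 0.64 with 11.

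Aldh1l2, a mitochondrial enzyme of folate metabolism, was the other gene that DESeq2 called over 12 libraries (adjusted p = 0.027). It measured 13.5, 13.8 and 14.1 CPM on the WT contralateral side, 25.3, 27.2 and 27.5 CPM in the WT core, 9.04, 9.75 and 8.77 CPM on the KO contralateral side and 28.8, 27.8 and 27.6 CPM in the KO core. The core levels of the genotypes nearly met, and the KO contralateral level was the lower one. The interaction of 0.66 ± 0.13 with 12 libraries and 0.69 ± 0.11 with 11 thus came with a contralateral difference of -0.57 and a core difference of 0.12 over 11 libraries, and -0.59 and 0.07 over 12.

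H2-T24, a class I histocompatibility gene, showed the opposite arrangement. It was at 6.39, 5.05 and 5.75 CPM on the WT contralateral side, 7.61, 8.78 and 13.5 CPM in the WT core, 4.95, 7.22 and 8.04 CPM on the KO contralateral side and 50.8, 63.2 and 31.4 CPM in the KO core. Every KO core library lay above every WT core library, WT replicate 3 included, while the contralateral libraries overlapped. The interaction was 2.05 ± 0.43 with 12 libraries and 2.33 ± 0.39 with 11, and the core difference alone was 2.59 over 11 libraries (adjusted p = 0.0136) and 2.28 over 12 (adjusted p = 0.214). H2-T24 belongs to a multigene family whose reads can be split between copies, so its level is uncertain. The remaining higher genes over 12 libraries were Inca1 (1.06 ± 0.29 with 11, 1.26 ± 0.33 with 12), an inhibitor of cyclin-dependent kinase, and Pcgf5 (0.54 ± 0.14 with 11, 0.56 ± 0.15 with 12), a Polycomb ring finger protein. Both were low in the WT core and not in the KO core, with all 3 KO core libraries above all 3 WT core libraries.

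At the other end over 12 libraries stood Ptpn7, a tyrosine phosphatase of blood cells. It was at 0.339, 0.293 and 0.352 CPM on the WT contralateral side, 3.89, 4.59 and 17.5 CPM in the WT core, 1.44, 0.451 and 0.843 CPM on the KO contralateral side and 1.88, 3.23 and 2.17 CPM in the KO core. KO lay above WT in intact tissue and below it in the core, without overlap in either, and the interaction was -3.28 ± 0.92 with 12 libraries and -2.25 ± 0.58 with 11. Ptpn7 had few reads in intact tissue, so its fold is poorly set. The other 4 lower genes were Scml4 (-1.42 ± 0.46 with 11, -2.03 ± 0.63 with 12), the ciliary gene Cfap126 (-1.49 ± 0.46 with 11, -1.56 ± 0.44 with 12), the Wnt pathway cofactor Pygo2 (-0.37 ± 0.10 with 11, -0.48 ± 0.15 with 12) and Atp5g1, a subunit of the mitochondrial ATP synthase (-0.36 ± 0.10 with 11, -0.41 ± 0.13 with 12).

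Without WT core replicate 3 the 5 higher genes with the smallest p were Tgfbi, Aldh1l2, Ccl4, H2-T24 and Fbln2. Tgfbi, a matrix protein induced by TGF-beta, was at 7.4, 5.4 and 8.57 CPM on the WT contralateral side, 42.3, 48.5 and 211 CPM in the WT core, 5.99, 5.13 and 4.83 CPM on the KO contralateral side and 93.5, 122 and 98.7 CPM in the KO core. The 3 KO core values lay between WT replicates 1 and 2 below and WT replicate 3 above. The interaction of Tgfbi was 1.63 ± 0.24 with 11 libraries (edgeR adjusted p = 0.287) and 0.48 ± 0.75 with 12. At the lower end, Shank3, a scaffold of the postsynaptic density, was at 126, 172 and 170 CPM on the WT contralateral side, 156, 153 and 6.28 CPM in the WT core, 169, 173 and 167 CPM on the KO contralateral side and 91.6, 89.8 and 88.8 CPM in the KO core. Its level held in WT replicates 1 and 2, was lower in every KO core library and was lowest in WT replicate 3. The interaction of Shank3 was -0.90 ± 0.15 with 11 libraries and -0.34 ± 1.09 with 12. Grik5, a kainate receptor subunit (-0.65 ± 0.13 with 11, -0.13 ± 0.89 with 12), Strip2 (-1.07 ± 0.21 with 11, -0.52 ± 1.03 with 12), Ajm1 (-0.52 ± 0.10 with 11, -0.02 ± 0.82 with 12) and Dtnb (-0.47 ± 0.09 with 11, -0.07 ± 0.52 with 12) were the other lower genes. Over 11 libraries DESeq2 called all of these higher and lower genes except Ccl4, with its smallest adjusted p for Tgfbi (8.8e-06). Over 12 libraries DESeq2 called Aldh1l2 alone among them.

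**Figure D2:**
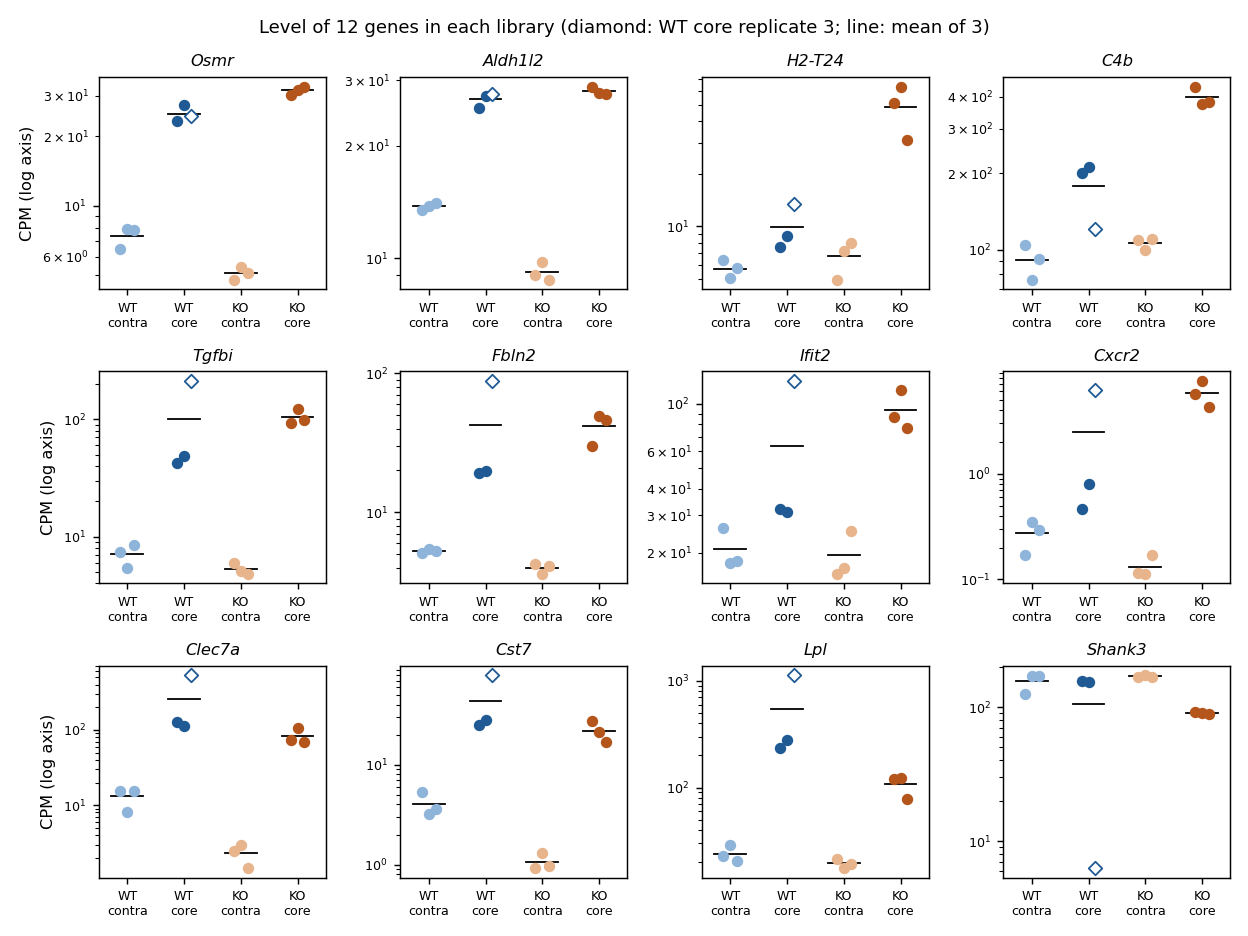
CPM of 12 genes in each of the 12 libraries on log axes, with points for libraries, a diamond for WT core replicate 3 and a line at the mean of 3. Osmr, Aldh1l2, H2-T24 and C4b keep a positive interaction whether the diamond is counted or not, while for Tgfbi, Fbln2, Ifit2 and Shank3 the diamond lies beyond the KO core libraries.

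Lists of genes for cell types and processes describe how far the interaction ran together. Each list described is given by its median, and many also by how many members were positive. The median over all tested genes was 0.008 with 12 libraries (50.9% positive) and 0.013 with 11 (52% positive). Shares of all genes at an unadjusted p under 0.05 were 5.39% higher and 4.83% lower with 11 libraries. With 12 libraries they were 0.763% and 0.415%. Of 40 lists, 18 changed the sign of their median between the 2 fits. In 16 lists the mean response of all 3 KO core libraries lay above WT core replicates 1 and 2 and below WT core replicate 3. Only 7 of the 39 lists with at least 3 tested members had a median of 1 sign in both fits and in all alternatives run. These were interferon response, neutrophil, reactive astrocyte, cytokines and inflammasome, T and NK cell and endothelium, all above 0, and glycolysis and hypoxia, below 0. Some neutrophil and T and NK cell genes passed the filter on low counts only through the KO core libraries, as given below for each list. Those genes count in the medians, and the alternatives were not run without them. The stable sign of these 2 lists therefore supports nothing. Without those genes the medians with 12 libraries were 0.81 for neutrophil and 0.01 for T and NK cell genes.

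**Figure D3:**
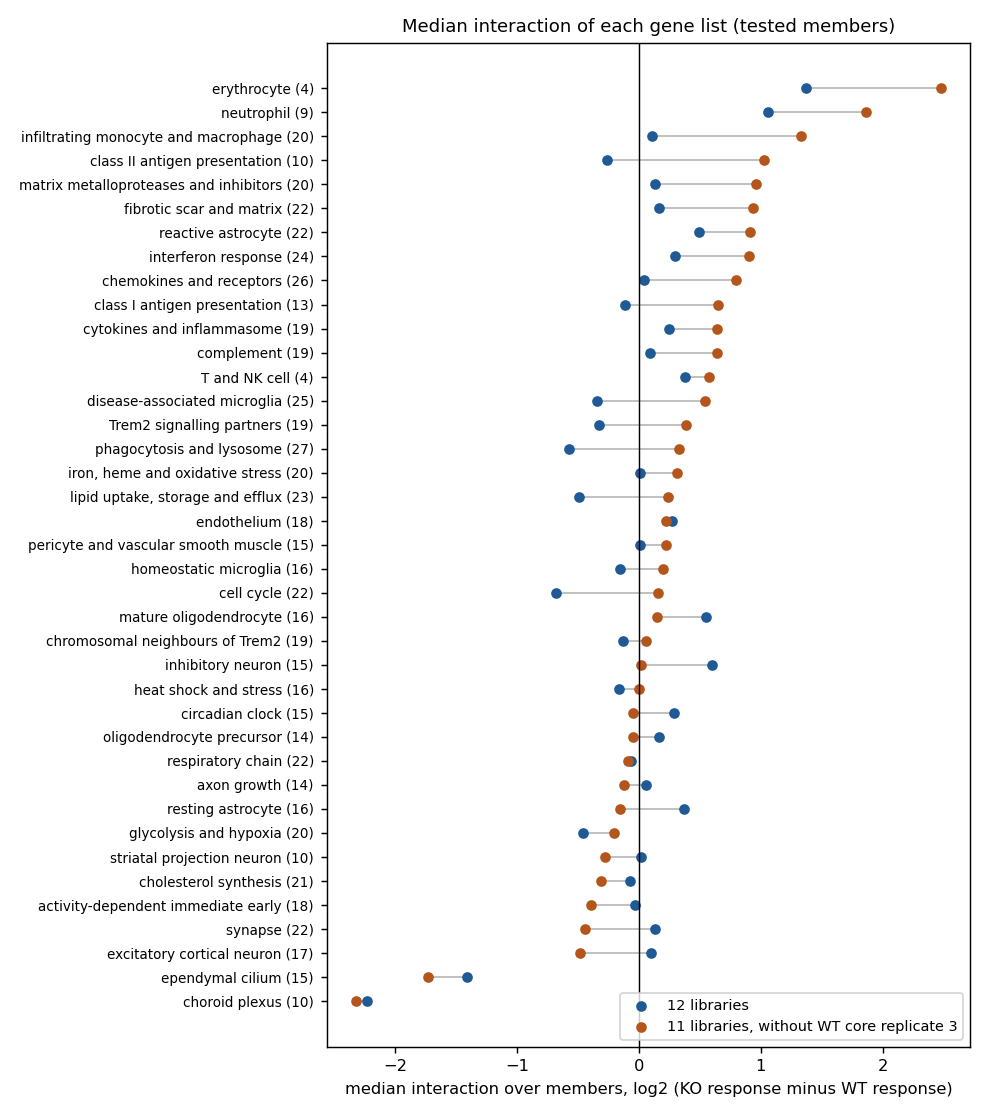
Median interaction over the tested members of each of 39 gene lists (number of members in brackets), with 12 libraries in blue and 11 in orange, and a line joining them. Most immune lists move to the right when WT core replicate 3 is left out, and disease-associated microglia goes from -0.34 to 0.54.

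**Figure D4:**
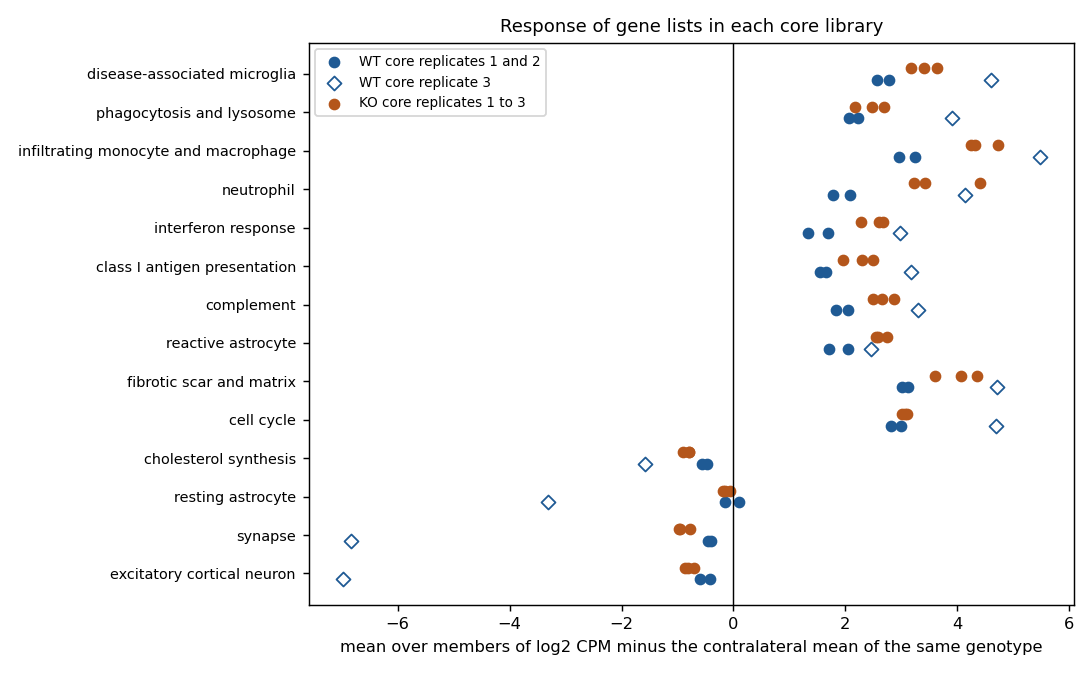
Mean log2 response of 14 lists in each core library against the contralateral mean of its own genotype. KO core libraries (orange) lie beyond WT replicates 1 and 2 (filled blue) in the interferon, complement and reactive astrocyte lists, and WT replicate 3 (open diamond) lies at -6.97 for excitatory neurons.

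Microglial genes. Trem2 signalling partners had a median of 0.39 with 11 libraries, with all 19 of 19 members at or above 0. Of these, 4 were at an unadjusted p under 0.05, against 5.39% of all genes in that direction. With 12 libraries the median was -0.33, with 3 of 19 positive. Tyrobp, the adaptor of Trem2, was at 31.9, 24.6 and 35.4 CPM on the WT contralateral side, 212, 257 and 1040 CPM in the WT core, 20.5, 19.1 and 16 CPM on the KO contralateral side and 213, 239 and 165 CPM in the KO core. WT and KO overlapped in the core, KO was lower on the contralateral side without overlap, and the interaction was 0.54 ± 0.25 with 11 libraries and -0.56 ± 0.73 with 12. The kinase Syk had 0.73 ± 0.29 with 11 libraries and -0.24 ± 0.69 with 12. Ptpn6, a phosphatase that dampens such signals, had 0.73 ± 0.21 with 11 libraries and -0.19 ± 0.63 with 12. Homeostatic microglia genes lay near the background, with a median of 0.20 with 11 libraries (10 of 16 positive) and -0.15 with 12 (5 of 16 positive), and none of 16 members at an unadjusted p under 0.05 in either. The members with the smallest p were the purinergic receptor P2ry13 (0.45 ± 0.25 with 11, 0.19 ± 0.32 with 12), the growth factor receptor Csf1r (0.36 ± 0.23 with 11, -0.12 ± 0.44 with 12) and Fcrls (0.36 ± 0.29 with 11, -0.64 ± 0.71 with 12). Tmem119, a surface marker of resident microglia, had 0.00 ± 0.19 with 11 libraries and -0.83 ± 0.58 with 12, with a 95% interval from -0.43 to 0.43 in the first. The purinergic receptor P2ry12 had 0.23 ± 0.24 with 11 libraries and 0.21 ± 0.24 with 12.

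The disease-associated microglia list had a median interaction of 0.54 with 11 libraries, with 23 of 25 members positive. In that direction 9 of the 25 were at an unadjusted p under 0.05, against 5.39% of all genes. With 12 libraries the median was -0.34, with 17 of 25 negative. Over 11 libraries, the median KO minus WT difference of these genes was -0.67 on the contralateral side and -0.14 in the core. Clec7a, a pattern recognition receptor, was at 15.4, 8.16 and 15.6 CPM on the WT contralateral side, 129, 113 and 533 CPM in the WT core, 2.48, 2.93 and 1.46 CPM on the KO contralateral side and 72.8, 105 and 69.3 CPM in the KO core. KO was lower in intact tissue without overlap and lower than every WT library in the core as well, but by less. Its interaction was 1.96 ± 0.42 with 11 libraries and 0.86 ± 0.81 with 12, and the contralateral difference of -2.49 was 1 of the 4 called there among all genes (adjusted p = 0.0418, 11 libraries). Over 12 libraries that difference was -2.51 (adjusted p = 1). Cst7, a cathepsin inhibitor, had 1.65 ± 0.36 with 11 libraries and 0.92 ± 0.63 with 12. The secreted phosphoprotein Spp1 had 1.95 ± 0.55 with 11 libraries and 0.59 ± 1.01 with 12, and the chemokine Ccl6 had 1.47 ± 0.35 with 11 libraries and 0.27 ± 0.81 with 12. Apoe, the lipoprotein of glia, had 0.26 ± 0.22 with 11 libraries and -0.42 ± 0.60 with 12.

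Lpl was negative in both fits. This lipoprotein lipase, which releases fatty acids from lipoproteins, was at 22.8, 28.9 and 20.6 CPM on the WT contralateral side, 237, 280 and 1130 CPM in the WT core, 21.5, 17.6 and 19.2 CPM on the KO contralateral side and 121, 122 and 78.1 CPM in the KO core. All 3 KO core libraries were below all 3 WT core libraries. The interaction was -2.05 ± 0.74 with 12 libraries and -0.96 ± 0.27 with 11, and the core difference was -1.25 over 11 libraries (adjusted p = 0.0272) and -2.36 over 12 (adjusted p = 0.692). The lipid list as a whole, Lpl included, changed sign, with a median of 0.24 with 11 libraries (17 of 23 positive) and -0.49 with 12 (3 of 23 positive). Plin2, which coats lipid droplets, had 0.84 ± 0.38 with 11 libraries and -0.66 ± 0.95 with 12. The scavenger receptor Msr1 had 1.12 ± 0.50 with 11 libraries and -0.31 ± 1.04 with 12, and the cholesterol exporter Abca1 had 0.36 ± 0.21 with 11 libraries and -0.52 ± 0.62 with 12.

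The sign of the phagocytosis and lysosome list also rested on 1 library. None of 27 members was positive with 12 libraries (median -0.57), and 25 of 27 were positive with 11 (median 0.33). Cd68, a lysosomal membrane protein of phagocytes, was at 393, 482 and 2220 CPM in the WT core and 340, 421 and 284 CPM in the KO core, after 25.6, 18.3 and 32.4 CPM on the WT and 17.6, 14.7 and 8.66 CPM on the KO contralateral side. WT core replicates 1 and 2 overlapped with KO, and replicate 3 was far above both. Its interaction was -0.67 ± 0.85 with 12 libraries and 0.57 ± 0.38 with 11. The cathepsin gene Ctsh had 0.84 ± 0.29 with 11 libraries and -0.23 ± 0.73 with 12, and the lysosomal membrane protein gene Lamp2 had 0.35 ± 0.15 with 11 libraries and -0.33 ± 0.50 with 12, while Mfge8, a bridging protein for the uptake of dying cells, had -0.62 ± 0.22 with 11 and -0.60 ± 0.24 with 12. The cell cycle list had the same pattern, with 0 of 22 members positive over 12 libraries (median -0.68) and 15 of 22 over 11 (median 0.16). The mitotic cyclin Ccnb2 had 0.68 ± 0.29 with 11 libraries and -0.25 ± 0.76 with 12, and the proliferation antigen gene Mki67 had 0.18 ± 0.30 with 11 libraries and -0.67 ± 0.66 with 12. The mitotic kinesin Kif20a had 0.81 ± 0.37 with 11 libraries and -0.06 ± 0.77 with 12, and the checkpoint kinase Bub1b had 0.27 ± 0.18 with 11 libraries and -0.49 ± 0.56 with 12.

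Infiltrating cells. Genes of infiltrating monocytes and macrophages had a median of 1.33 with 11 libraries, with 20 of 20 members positive, and of 0.11 with 12, with 10 of 20 positive. Ly6c2 among them passed the filter on low counts only through the KO core libraries, which chose it for being high there. The other 19 had medians of 1.36 with 11 libraries (19 positive) and 0.29 with 12 (10 positive). Over all 20 members, the median difference between genotypes over 11 libraries was 0.59 in the core and -0.71 on the contralateral side. Chil3, a chitinase-like protein of alternatively activated macrophages, was at 0.283, 0.235 and 0.822 CPM on the WT contralateral side, 2.32, 2.7 and 13.9 CPM in the WT core, 0.173, 0.282 and 0.112 CPM on the KO contralateral side and 6.8, 10.5 and 7.82 CPM in the KO core. KO core libraries lay above WT replicates 1 and 2 and below replicate 3, and the interaction was 2.94 ± 0.67 with 11 libraries and 1.62 ± 1.15 with 12. Chil3 had few reads in intact tissue, so its fold is poorly set. F13a1, a coagulation factor subunit made by macrophages, had 1.47 ± 0.42 with 11 libraries and 0.37 ± 0.82 with 12, and the acute-phase gene Saa3 had 4.21 ± 1.01 with 11 libraries and 2.78 ± 1.48 with 12. The monocyte receptor gene Ccr2 had 0.62 ± 0.47 with 11 libraries and -0.61 ± 0.95 with 12.

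Of 12 neutrophil genes, 9 were tested with 11 libraries and 8 with 12, with medians of 1.86 and 1.06. Of the 9, Cxcr2, Ltf and Il1r2 passed the filter on low counts only through the KO core libraries, so that the filter itself chose them for being high there, and the count and median over all tested members support nothing. The other 6 had medians of 1.25 with 11 libraries (6 positive) and 0.81 with 12 (5 positive). Cxcr2, the chemokine receptor of neutrophils, was at 0.17, 0.352 and 0.294 CPM on the WT contralateral side, 0.465, 0.804 and 6.22 CPM in the WT core, 0.115, 0.113 and 0.169 CPM on the KO contralateral side and 5.64, 7.51 and 4.28 CPM in the KO core. Its KO core levels lay far above WT replicates 1 and 2 and overlapped with WT replicate 3. The interaction was 4.18 ± 0.64 with 11 libraries and 2.22 ± 1.38 with 12, and the core difference was 3.21 over 11 libraries (adjusted p = 0.0142) and 1.23 over 12 (adjusted p = 0.699). Since the filter chose Cxcr2 for being high in the KO core, these values and p-values do not support a difference between genotypes. The calprotectin subunit gene S100a8 had 3.96 ± 0.77 with 11 libraries and 2.16 ± 1.36 with 12. The receptor for granulocyte growth factor, Csf3r, had 0.99 ± 0.29 with 11 libraries and 0.50 ± 0.45 with 12. Cxcr2 and S100a8 had few reads in intact tissue, where the fold is poorly set.

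The lists for lymphocytes had few tested members. Of 18 T and NK cell genes, 4 were tested, with a median of 0.58 with 11 libraries and 0.38 with 12. Cd8a, the coreceptor of cytotoxic T cells, had 2.41 ± 0.82 with 11 libraries and 1.45 ± 0.97 with 12, and it passed the filter only through the KO core libraries. The other 3 had medians of 0.45 and 0.01. Among them, the kinase Lck had 0.45 ± 0.43 with 11 libraries and 0.01 ± 0.50 with 12, and the coreceptor gene Cd4, which microglia also express, had -0.77 ± 0.81 with 11 libraries and -1.57 ± 0.95 with 12.

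Innate immune mediators. The interferon response list had a median of 0.90 with 11 libraries, with all 24 of 24 tested members positive. Of the 24, 12 were at an unadjusted p under 0.05, against 5.39% of all genes in that direction. With 12 libraries the median was 0.30, with 18 of 24 positive and 0 at that p. In the core over 11 libraries, 14 of the 24 were called higher in KO, against 0.901% of all genes, with a median core difference of 1.40 beside 0.38 on the contralateral side. Over 12 libraries none of them was called. The mean response of the list was 2.60, 2.68 and 2.27 in the KO core, 1.34 and 1.69 in WT core replicates 1 and 2 and 2.98 in replicate 3. Ifit2, an interferon-induced RNA-binding protein, was at 26.2, 17.9 and 18.2 CPM on the WT contralateral side, 31.9, 31 and 128 CPM in the WT core, 15.9, 17 and 25.3 CPM on the KO contralateral side and 86.9, 116 and 77.4 CPM in the KO core. WT core replicates 1 and 2 lay just above intact tissue, while WT replicate 3 and all KO core libraries were far above it. Its interaction was 1.67 ± 0.32 with 11 libraries and 0.65 ± 0.72 with 12. Stat2, the transcription factor that carries type I interferon signals to the nucleus, had 0.70 ± 0.21 with 11 libraries and 0.37 ± 0.33 with 12, and the antiviral membrane protein Ifitm3 had 0.80 ± 0.23 and 0.26 ± 0.46.

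The promoters of the interferon response list, of called and other members alike, were searched on either strand for GAAA, any 2 bases and GAAA again. These letters are the core of the element that interferon-activated Stat and Irf factors bind. Windows of 300 bases, from 250 before to 50 after the start, came from RefSeq (GRCm38.p6), and 19 of the 24 tested genes had one. The letters occurred in at least 1 window of 12 of the 19 genes (63.2%), against 460 of 12118 tested genes with a window (3.8%). Counted by window over all genes, they occurred in 1131 of 32851 (3.44%). The list was chosen for the response to interferon, so its higher share says nothing about the genotypes. The windows of the 2 members with matches and the smallest p are printed 5′ to 3′ on the gene's strand as examples of where the letters lie, with matches in capitals. They are Stat2, chr10:128270248-128270547 on the plus strand, and Ifitm3, chr7:141010695-141010994 on the minus strand.
Stat2: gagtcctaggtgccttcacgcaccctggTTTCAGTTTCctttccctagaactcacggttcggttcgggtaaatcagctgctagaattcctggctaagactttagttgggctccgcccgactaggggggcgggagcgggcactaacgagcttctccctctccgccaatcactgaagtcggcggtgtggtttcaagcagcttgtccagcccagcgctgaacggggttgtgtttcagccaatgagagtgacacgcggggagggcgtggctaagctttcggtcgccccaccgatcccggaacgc
Ifitm3: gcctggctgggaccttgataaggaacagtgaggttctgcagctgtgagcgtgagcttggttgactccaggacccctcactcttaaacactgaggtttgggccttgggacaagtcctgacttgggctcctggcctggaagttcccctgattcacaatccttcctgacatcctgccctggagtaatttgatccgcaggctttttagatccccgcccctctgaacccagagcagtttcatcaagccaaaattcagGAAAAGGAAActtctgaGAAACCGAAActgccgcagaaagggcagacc
In Stat2 the letters stand once, on the opposite strand and far upstream, and in Ifitm3 there are 2 matches close to the start. The window of Ifit2, which had the highest interaction in the list, does not hold these letters. A match describes the sequence and does not show a bound factor.

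Class I antigen presentation genes had a median of 0.65 with 11 libraries, with 13 of 13 positive, and of -0.11 with 12. H2-K1, a classical class I heavy chain, had 0.85 ± 0.31 with 11 libraries and 0.01 ± 0.64 with 12, and H2-D1, another, had 0.90 ± 0.36 with 11 libraries and -0.01 ± 0.70 with 12. The non-classical H2-T23 had 1.15 ± 0.31 with 11 libraries and 0.44 ± 0.58 with 12. Class II genes had a median of 1.03 with 11 libraries, with 9 of 10 positive, and of -0.26 with 12. H2-Ab1, a class II beta chain, was at 15.5, 21 and 113 CPM in the WT core and 26.2, 42.7 and 19.6 CPM in the KO core and had 1.19 ± 0.52 with 11 libraries and -0.26 ± 1.00 with 12. The costimulatory ligand Cd86 had 1.00 ± 0.34 with 11 libraries and 0.32 ± 0.58 with 12, and the protease Ctss, which trims the class II chaperone, had 0.65 ± 0.29 with 11 libraries and -0.14 ± 0.62 with 12. The histocompatibility genes are a multigene family, and their values carry the same uncertainty as H2-T24.

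Complement was mixed, with a median of 0.64 with 11 libraries (17 of 19 positive) and 0.09 with 12 (10 of 19 positive). C4b, a component of the classical and lectin pathways, was at 104, 76.2 and 92.2 CPM on the WT contralateral side, 200, 212 and 121 CPM in the WT core, 109, 99.4 and 110 CPM on the KO contralateral side and 438, 375 and 383 CPM in the KO core. Every KO core library was above every WT core library, and WT replicate 3 was the lowest of the WT core. The interaction was 0.94 ± 0.30 with 12 libraries and 0.73 ± 0.16 with 11, and the core difference was 0.97 over 11 libraries (adjusted p = 0.0176) and 1.16 over 12 (adjusted p = 0.692). Cfb, the serine protease of the alternative pathway, was positive in both fits, at 1.58 ± 0.60 and 2.07 ± 0.48. The protease gene C1s1 had 1.63 ± 0.39 with 11 libraries and 1.16 ± 0.53 with 12. C3, the component on which the pathways meet, had -0.21 ± 0.62 with 11 libraries and -0.33 ± 0.66 with 12.

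Cytokine and inflammasome genes had a median of 0.64 with 11 libraries and 0.25 with 12. Il1b, the main secreted interleukin-1, was at 0.396, 0.704 and 0.47 CPM on the WT contralateral side, 0.581, 2.18 and 5.7 CPM in the WT core, 0.461, 0.564 and 0.731 CPM on the KO contralateral side and 10.4, 12 and 8.35 CPM in the KO core. Every KO core library exceeded every WT core library. Il1b had few reads in intact tissue, so its fold is poorly set. The interaction of Il1b was 2.73 ± 0.66 with 11 libraries and 1.70 ± 0.94 with 12, and the core difference was 2.91 over 11 libraries (adjusted p = 0.0272) and 1.87 over 12 (adjusted p = 0.692). Its antagonist Il1rn had 2.44 ± 0.65 with 11 libraries and 1.35 ± 1.11 with 12, and the Toll-like receptor Tlr2 had 1.24 ± 0.33 with 11 libraries and 0.59 ± 0.59 with 12.

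Chemokines and receptors had a median of 0.80 with 11 libraries and 0.04 with 12. The macrophage chemokine Ccl4 ranked among the leading genes, but its KO contralateral level rests on 2 counts in all 3 libraries. Its core to contralateral ratio was 141-fold in KO, with a 95% exact counting interval from 38.6 to 1170, and 11.3-fold in WT without replicate 3, from 7.78 to 16.9. Of the 26 members, 4 passed the filter only through the KO core libraries, and the other 22 had the same medians of 0.80 and 0.04.

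Treml2 and Trem1 belong to the Trem gene cluster that neighbours Trem2 on its chromosome. Treml2 was at 2.26, 1.47 and 2.06 CPM on the WT contralateral side, 8.94, 12.7 and 31.3 CPM in the WT core, 0.691, 1.35 and 0.731 CPM on the KO contralateral side and 20.2, 23.5 and 13 CPM in the KO core. KO was lower in intact tissue and higher than WT replicates 1 and 2 in the core, and the interaction was 1.86 ± 0.46 with 11 libraries and 1.15 ± 0.68 with 12. Trem1, an amplifier of inflammation on neutrophils and monocytes, had 0 counts on the KO contralateral side and 8 on the WT side. Its core level was at least 63.4-fold higher than a floor of 3 counts over the KO contralateral group, and 8.73-fold higher than the contralateral level in WT without replicate 3, with a 95% exact counting interval from 4.09 to 21.4. The 19 neighbours tested had a median interaction of 0.06 with 11 libraries, and the 18 tested with 12 had -0.13. Treml1 and Treml4 among them passed the filter only through the KO core libraries.

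Astrocytes and scar. The reactive astrocyte list had a median of 0.91 with 11 libraries (20 of 22 positive, 13 at an unadjusted p under 0.05). With 12 libraries the median was 0.49 (17 of 22 positive, 5 at an unadjusted p under 0.05). Of all genes, 5.39% with 11 libraries and 0.763% with 12 were higher at that p. Osmr belongs to this list. Over 11 libraries, the median difference between genotypes was 0.42 in the core and -0.47 on the contralateral side. Gfap, the filament protein of astrocytes, was at 911, 762 and 968 CPM on the WT contralateral side, 2290, 2340 and 613 CPM in the WT core, 838, 700 and 823 CPM on the KO contralateral side and 4290, 2900 and 3990 CPM in the KO core. KO core libraries were above all 3 WT core libraries, and WT replicate 3 lay below intact tissue. The interaction was 0.85 ± 0.21 with 11 libraries and 1.26 ± 0.61 with 12. The copper carrier ceruloplasmin, Cp, had 1.08 ± 0.25 with 11 libraries and 0.70 ± 0.39 with 12, and the acute-phase gene Lcn2, whose contralateral levels spread widely, had 1.60 ± 0.99 with 11 libraries and 1.96 ± 1.11 with 12. Resting astrocyte genes had a median of -0.15 with 11 libraries and 0.37 with 12. Slc1a3, a glutamate transporter, had -0.37 ± 0.16 with 11 libraries and 0.17 ± 1.00 with 12, Fgfr3 had -0.37 ± 0.17 with 11 libraries and 0.11 ± 0.74 with 12, and the amino acid transporter Slc7a10 had -0.54 ± 0.25 with 11 libraries and 0.03 ± 1.20 with 12.

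The fibrotic scar and matrix list had a median of 0.94 with 11 libraries, with 20 of 22 positive. Of the 22, 13 were higher at an unadjusted p under 0.05, against 5.39% of all genes. With 12 libraries the median was 0.17, with 13 of 22 positive. Col12a1, a collagen on the surface of fibrils, was at 18.5, 14.9 and 18.6 CPM on the WT contralateral side, 45.8, 55 and 117 CPM in the WT core, 10.5, 12.5 and 14 CPM on the KO contralateral side and 86.7, 185 and 160 CPM in the KO core. KO was the higher group in the core except that its replicate 1 lay under WT replicate 3. The interaction was 2.01 ± 0.37 with 11 libraries and 1.48 ± 0.52 with 12. Loxl2, which cross-links collagen, had 1.83 ± 0.34 with 11 libraries and 0.91 ± 0.74 with 12. Fbln2, a matrix glycoprotein, had 1.50 ± 0.26 with 11 libraries and 0.38 ± 0.74 with 12, and the fibrillar collagen Col1a1 had 1.36 ± 0.50 with 11 libraries and 0.59 ± 0.74 with 12. KO core replicate 1 was the lowest KO core library for Tgfbi, Col12a1, Fbln2 and Loxl2, and without it and WT core replicate 3, edgeR called 3 genes, namely Fbln2 at 1.69, Col12a1 at 2.27 and Col5a2 at 1.70.

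Metalloproteases and their inhibitors had a median of 0.96 with 11 libraries and 0.13 with 12. Mmp10 has 0 counts on the KO contralateral side, and with it set at a bound of 3 counts over the group the medians were 0.78 and 0.12. The gelatinase gene Mmp2 had 1.32 ± 0.37 with 11 libraries and 0.68 ± 0.59 with 12. Adam12 had 1.10 ± 0.35 with 11 libraries and 0.67 ± 0.47 with 12, and Mmp19 had 1.25 ± 0.41 with 11 libraries and 0.38 ± 0.73 with 12. The contractile genes Acta2 (1.32 ± 0.32 with 11, -0.10 ± 0.89 with 12) and Tagln (1.43 ± 0.29 with 11, -0.04 ± 0.91 with 12), expressed by smooth muscle and myofibroblasts, were the leading members of the pericyte and vascular smooth muscle list, whose median was 0.22 with 11 libraries and 0.01 with 12. Cspg4, the NG2 proteoglycan of pericytes and oligodendrocyte precursors, had the opposite sign. It was at 15.2, 16.4 and 17 CPM on the WT contralateral side, 58.9, 64.9 and 257 CPM in the WT core, 19.7, 12.5 and 12.6 CPM on the KO contralateral side and 29, 35.6 and 26.7 CPM in the KO core. KO core libraries lay below all 3 WT core libraries, and the interaction was -0.90 ± 0.24 with 11 libraries and -1.94 ± 0.71 with 12. The precursor list as a whole had a median of -0.05 with 11 libraries and 0.17 with 12. Its member Ptprz1, a receptor phosphatase, had -0.31 ± 0.13 with 11 libraries and 0.08 ± 0.53 with 12, and C1ql1 had 0.47 ± 0.28 with 11 libraries and 0.12 ± 0.38 with 12.

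Neurons and metabolism. Synapse genes had a median interaction of -0.44 with 11 libraries, with 0 of 22 positive. Of the 22, 12 were lower at an unadjusted p under 0.05, against 4.83% of all genes. With 12 libraries the median was 0.13, with 15 of 22 positive. Over 11 libraries, 8 of the 22 were called lower in the KO core than in the WT core, against 1.45% of all genes, and over 12 libraries none was. Camk2a, a kinase of excitatory synapses, was at 2420, 3150 and 3250 CPM on the WT contralateral side, 2790, 2770 and 10.5 CPM in the WT core, 2980, 3210 and 2940 CPM on the KO contralateral side and 1960, 1520 and 1380 CPM in the KO core. WT core replicates 1 and 2 stayed within the range of intact tissue, KO core libraries lay below it, and WT replicate 3 was near 0. The interaction was -0.83 ± 0.21 with 11 libraries and -0.25 ± 1.61 with 12. The vesicle protein gene Syn1 had -0.54 ± 0.14 with 11 libraries and 0.03 ± 1.46 with 12. Excitatory cortical neuron genes had a median of -0.48 with 11 libraries and 0.10 with 12, and inhibitory neuron genes of 0.02 and 0.60. With 11 libraries, 8 of the 15 inhibitory neuron genes were positive. Cplx2, a regulator of vesicle fusion on the excitatory list, had -0.56 ± 0.20 with 11 libraries and 0.01 ± 1.36 with 12. Among peptide genes of interneurons, Npy had -1.12 ± 0.33 with 11 libraries and -0.59 ± 0.96 with 12. Sst had -0.72 ± 0.25 with 11 libraries and -0.14 ± 1.45 with 12, and Cck had -0.65 ± 0.30 with 11 libraries and -0.07 ± 1.56 with 12.

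Cholesterol synthesis genes had a median of -0.31 with 11 libraries, with 0 of 21 positive. Of the 21, 10 were lower at an unadjusted p under 0.05, against 4.83% of all genes. With 12 libraries the median was -0.07, with 7 of 21 positive. Srebf2, the transcription factor that drives the pathway, was at 207, 219 and 234 CPM on the WT contralateral side, 147, 151 and 52.3 CPM in the WT core, 199, 203 and 182 CPM on the KO contralateral side and 96.3, 97.3 and 100 CPM in the KO core. Its level was below intact tissue in every core library, more so in KO than in WT replicates 1 and 2, and lowest in WT replicate 3. The interaction was -0.42 ± 0.10 with 11 libraries and -0.07 ± 0.45 with 12, and the core difference was -0.58 over 11 libraries (adjusted p = 0.0176) and -0.25 over 12 (adjusted p = 0.838). The sterol enzyme Msmo1 had -0.53 ± 0.12 with 11 libraries and -0.25 ± 0.34 with 12, and Sqle had -0.46 ± 0.12 with 11 libraries and -0.09 ± 0.49 with 12. Over 11 libraries, synapse and excitatory neuron genes were lower in the KO core, with median differences of -0.52 and -0.43. Inhibitory neuron genes (0.02) and striatal projection neuron genes (0.47) were not. The part of neurons in the sterol values was not tested. Glycolysis and hypoxia genes had medians of -0.20 and -0.46 over 11 and 12 libraries, with 6 and 4 of 20 members positive. The glycolytic enzyme gene Aldoa had -0.34 ± 0.09 with 11 libraries and -0.49 ± 0.26 with 12. The hexokinase Hk1 had -0.37 ± 0.10 with 11 libraries and 0.01 ± 0.51 with 12, and the hypoxia-induced peptide gene Adm had 1.10 ± 0.32 with 11 libraries and 0.11 ± 0.70 with 12. Respiratory chain genes had medians of -0.09 and -0.06, and its members with the smallest p were Cox5a (-0.25 ± 0.09 with 11, -0.25 ± 0.12 with 12), Cyc1 (-0.26 ± 0.10 with 11, -0.16 ± 0.16 with 12) and Cox7a2 (-0.26 ± 0.11 with 11, -0.28 ± 0.13 with 12).

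Some lists turned on other single libraries. Choroid plexus genes had medians of -2.32 and -2.23 with 11 and 12 libraries, but the transthyretin gene Ttr was at 2.65, 2110 and 28.8 CPM on the KO contralateral side and 2.49, 224 and 9.04 CPM on the WT side. High levels thus marked replicate 2 in both genotypes, far more so in KO, and without KO contralateral replicate 2 the 11-library median turned to 0.67. Motile cilium genes of ependyma had a median of -1.73 with 11 libraries and 0.48 without WT core replicate 2. Erythrocyte genes had a median of 2.48 with 11 libraries and -0.32 without KO core replicate 2, where the globin gene Hbb-bs was at 43.2 CPM against 1.27 and 3.38 in the other KO core libraries. The dopamine receptor gene Drd2, a marker of striatum, was at 33.5, 11 and 16.8 CPM on the KO and 5.93, 13.4 and 9.81 CPM on the WT contralateral side. Markers of these neighbouring structures thus differed between libraries of 1 group, and their part in the other interactions was not tested.

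The interaction of a gene is a core difference less a contralateral one, and the lists differed in which of the 2 was the larger over 11 libraries. Interferon genes had 1.40 in the core and 0.38 on the contralateral side, scar genes 0.79 and -0.20, and synapse genes -0.52 and -0.11. For these the core difference was the larger. Disease-associated microglia had -0.14 and -0.67, and infiltrating macrophages 0.59 and -0.71, so that their contralateral difference was the larger. Whether the 2 differences of a list depart from each other was not tested for any list as a whole. Gene by gene, no interaction passed edgeR's test in either fit. DESeq2 called some members of these lists over 11 libraries, such as Ifit2, Col12a1, Shank3 and Clec7a.

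**Figure D5:**
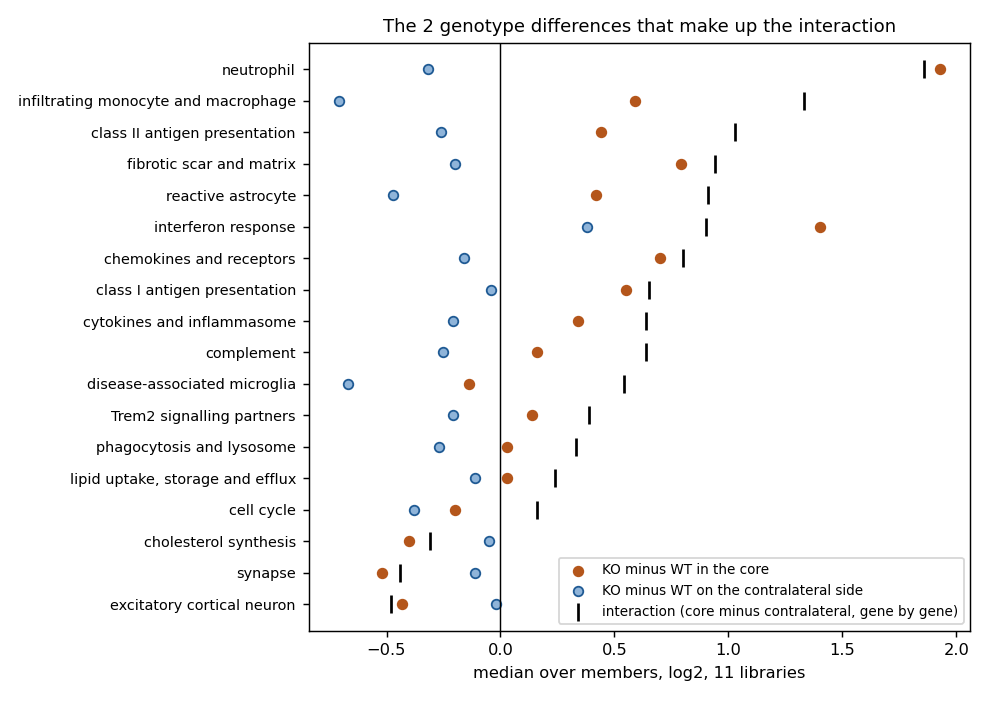
Median KO minus WT log2 difference over the members of 18 lists in the core (orange) and on the contralateral side (blue), with the median interaction as a black tick, 11 libraries. Interferon genes lie at 1.40 in the core, while for disease-associated microglia the contralateral value of -0.67 is farther from 0 than the core value of -0.14.

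For genes with a mean of at least 1 log2 CPM, the 95% interval of the interaction reached a median of 0.771 log2 to either side with 12 libraries and 0.37 with 11. Differences between the genotypes' responses below that size were not detectable for a typical gene. Larger ones could be missed too, since these intervals are not adjusted for the number of genes tested. Tgfbi at 1.63 with 11 libraries, for example, did not pass edgeR's test, although DESeq2 called it there. A p that misses the threshold does not show that the responses were equal.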

How the data were processed

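Samples were grouped by their labels. The authors deposited expected counts (estimated counts per gene, which need not be whole) and TPM, scaled by them to transcript length and library. HISAT2 2.0.4, Subread, Bowtie2 and GRCm39 (mm39) are listed without roles, per the submitters' processing notes, and the tool behind the counts was not given in the sources used here. Values were not whole for 3678 genes (19.4%), so the expected counts were rounded, since the planned tests take whole counts. TPM served only for alternatives.

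Interactions were fitted by quasi-likelihood in edgeR 4.0.16 (R 4.3.3; TMM, filterByExpr, robust), with 1 mean per group, leaving 8 residual degrees of freedom with 12 libraries and 7 with 11. Calls needed an adjusted p (Benjamini-Hochberg, all genes tested) under 0.05. The SE is the size of the log2 value over the root of its F statistic, and intervals are at 95%. Alternatives used DESeq2 1.42.0, limma 3.58.1, other scalings and filters, added peri-infarct libraries, a replicate block and each library left out. The scripts were tested on simulated data.

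The comparison, the library left out and the 40 gene lists (714 genes, 8 not found in the table) were chosen with earlier results of these data known. The naming rule takes Trem2, the 5 smallest p in each direction of each fit, and from each list the 3 members with the smallest p over 11 libraries. The text gives a list's 3 members only where it describes the list by its genes, and 1 gene is left out here. Tyrobp, Osm, P2ry12, Tmem119, Apoe, Spp1, Abca1, Cd68, Mki67, Ccr2, Ly6c2, Ltf, Il1r2, C3, Treml1, Lcn2, Col1a1, Col5a2, Mmp10, Snap25, Ttr and Hbb-bs fall outside the rule and were chosen after their values were seen. Lists were not tested as sets. Counting intervals cover counting error only. No pair of libraries within a group agreed within sampling noise. No use of strand is stated, so overlapping and antisense genes are uncertain.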

Additional observations from a re-analysis of the deposited data

How the results depend on the processing

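The count of 0 called interactions held for 12 libraries under RLE size factors, no filter on low counts, limma-voom with and without quality weights, both TPM scales and added peri-infarct libraries. DESeq2 called 2 genes over 12 libraries, Osmr and Aldh1l2. Over 11 libraries the count was 81 with DESeq2, 2 with limma on log2(TPM + 1) and 0 in the other settings. Leaving out 1 further library gave 0 throughout with 12 and 0 to 3 with 11, the 3 without KO core replicate 1. Where a single WT core library remained, it was assumed to vary like the other groups. The cause of these shifts was not tested.

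The Trem2 interaction over 12 libraries was 0.43 with quality weights and ranged from -1.23 to 0.32 when 1 library was left out, the last without WT core replicate 3. Over 11 libraries it was -0.18 on the log2(TPM + 1) scale, which compresses low values, and 0.01 to 0.65 when 1 library was left out. With a replicate block within genotype, edgeR called 0 genes in both sets and Trem2 was at -0.36 with 12 libraries and 0.25 with 11. A block shared by the genotypes also called 0, with Trem2 at -0.66 and 0.37. Deviations of libraries with the same number correlated above 0.1 in 2 of 6 pairs. With 3 libraries per group this cannot decide whether libraries with the same number share an animal, and no label says so. Over 12 libraries the medians of 30 of 39 gene lists changed sign in at least 1 alternative, and over 11 libraries those of 14. Few counts in intact tissue limit values such as those of Cxcr2, Cd8a, Chil3, Il1b, Ptpn7, Trem1, Ccl4 and Mmp10.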
